A study of Mus musculus with 6 samples.

Results

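The genes described here were 7 markers of endothelial cells (Pecam1, Cdh5, Kdr, Flt1, Tek, Cldn5 and Esam) and 3 markers of mural cells (Rgs5, Pdgfrb and Vtn). They were taken by name as known markers of these cells, and all 10 were found among the 55341 genes of each of the 6 count files. The libraries came from poly(A) RNA of cultured cerebellar granule neurons (CGNs). The labels named the vehicle DMSO (n = 3) or GSK-126 (n = 3), a small molecule that inhibits EZH2, the enzyme that trimethylates lysine 27 of histone H3 (H3K27me3) at repressed promoters. Both groups shared the same source, as the study's methods describe it. Granule neuron precursors were enriched on Percoll from cerebella of CD1-IGS mouse pups in the early postnatal period. Each replicate was a culture from the pooled tissue of litters, and cytosine arabinoside was added to stop non-neuronal cells from dividing. The labels gave cerebellum as the tissue, and neither an age nor a dose nor a time in culture, and pooled litters give no value for a single animal. The comparison asked how transcript levels of vessel markers differed with EZH2 inhibition in a culture that is meant to hold few vessel cells.

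Endothelial cells form the inner wall of a vessel and mural cells (pericytes and smooth muscle cells) wrap around it. Endothelial cells are held together by VE-cadherin (Cdh5), PECAM1, claudin-5 and ESAM, and they respond to VEGF through the receptors KDR and FLT1 and to angiopoietins through TEK. They recruit pericytes by secreting PDGF-B, which PDGFRB on the mural cell receives. In the brain these cells together make the blood-brain barrier. Several of the genes are also transcribed elsewhere, Pdgfrb for instance in fibroblasts of the meninges.

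The 3 mural markers were more abundant than most of the endothelial markers, and the endothelial markers did not stand at levels in proportion to each other. Levels between genes are given as CPM (counts scaled by TMM to equal library totals) per kb of exon, as mean ± SD over n = 3. With DMSO, Vtn stood highest at 28.7 ± 11.6 CPM per kb, then Pdgfrb at 19.4 ± 2.55, Cdh5 at 11.8 ± 2.84 and Rgs5 at 6.98 ± 4.32. The ranges of the other 6 endothelial markers lay below that of Rgs5, from Kdr at 1.29 ± 0.282 through Tek at 0.719 ± 0.374, Flt1 at 0.496 ± 0.0373, Esam at 0.368 ± 0.249 and Pecam1 at 0.267 ± 0.0810 to Cldn5 at 0.164 ± 0.163. In this order only the neighbours Pdgfrb and Cdh5, and Rgs5 and Kdr, had ranges that did not overlap. Of all tested genes, 81.7% lay below Pdgfrb and 88.9% below Vtn in CPM per kb, against 1.3% below Pecam1 and 0.3% below Cldn5.

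Cdh5 therefore made up 66.3% ± 5.29 (SD, n = 3) of the summed CPM of the 7 endothelial markers with DMSO and 50.1% ± 5.96 with GSK-126. Its level per kb was 51.3, 48.1 and 36.5 times that of Pecam1 in DMSO replicates 1, 2 and 3, and 39.2, 14.4 and 36.6 times in the GSK-126 replicates. Several defining endothelial genes were near the floor of detection. Of 22 other endothelial genes, 7 had no library above 10 counts, among them the endothelial transcription factors Erg, Sox17 and Sox18, and Icam2. Erg reached at most 1 count in a DMSO library and 8 in a GSK-126 library, and Sox17 had 1 count in a single library. The values below are therefore those of named genes, and no cell type is read from them. In bulk RNA fewer cells of a type and less RNA per cell cannot be told apart.

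With GSK-126 the order of levels per kb kept Vtn first at 34.7 ± 13 CPM per kb and Pdgfrb second at 30.0 ± 3.34, followed by Rgs5 at 10.3 ± 5.30 and Cdh5 at 9.56 ± 2.25. Kdr and Flt1 then lay side by side at 1.28 ± 0.254 and 1.27 ± 0.301 CPM per kb, and their ranges overlapped. Below them came Tek at 1.08 ± 0.440, Cldn5 at 0.762 ± 0.461, Esam at 0.752 ± 0.267 and Pecam1 at 0.352 ± 0.114. Ranges of neighbours did not overlap between Pdgfrb and Rgs5 and between Cdh5 and Kdr.

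**Figure D1:**
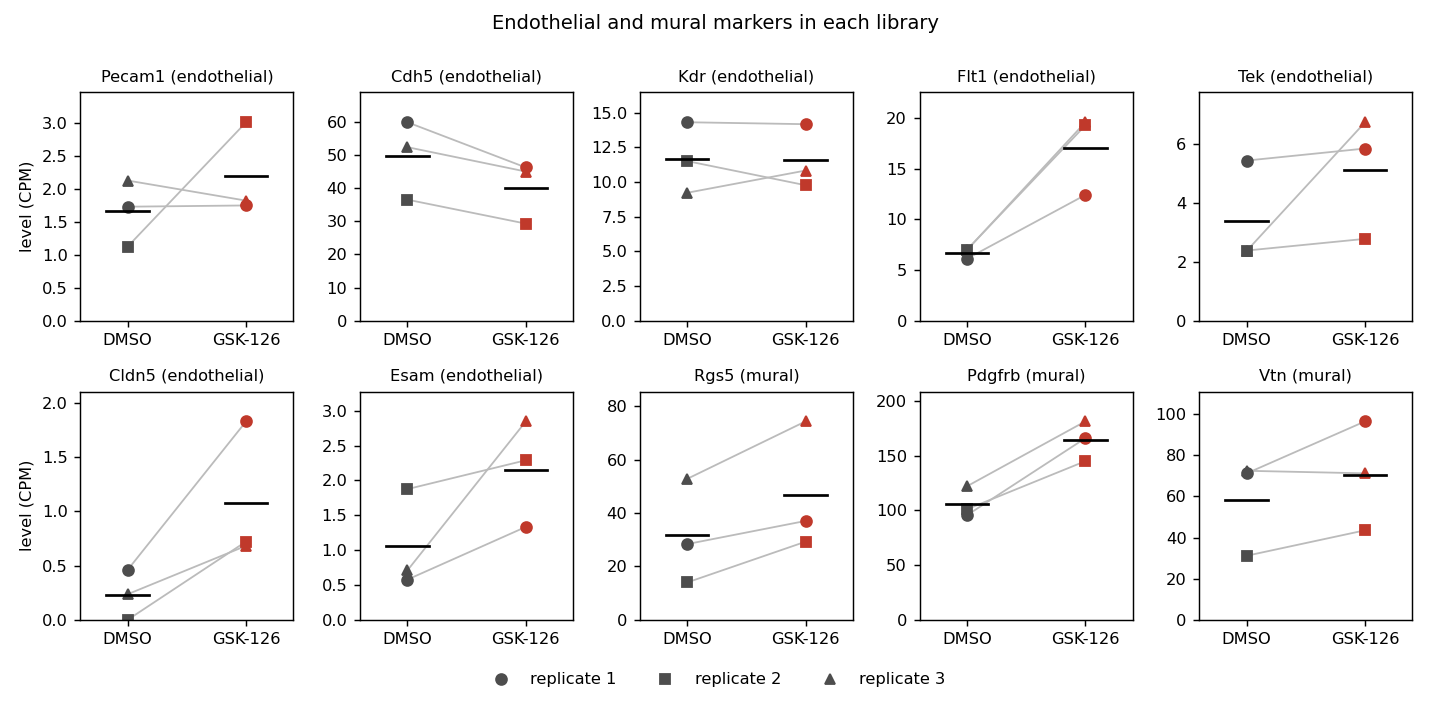
Level of each of the 10 markers in each library (CPM, linear axes from 0), with DMSO in grey, GSK-126 in red, a symbol per replicate number, a line joining libraries of the same number and a black bar at the group mean. Flt1, Cldn5 and Pdgfrb are the markers whose GSK-126 libraries all lie above the DMSO libraries, and Cdh5 is lower in each of the 3 pairs.

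Across all genes, edgeR's quasi-likelihood test called 0 of 16343 genes (0%) at an adjusted p under 0.05 when treatment was the only term, with 981 genes at an unadjusted p under 0.05. DESeq2 with the same term called 59 of 16337 genes (0.361%). Libraries of the same replicate number deviated together, and with that number as a block edgeR called 365 genes higher (2.23%) and 232 lower (1.42%). No marker passed the edgeR test with the filter and without the block, and the blocked values are given beside the calls they change. Of the 10 markers 9 passed the filter on low counts, and Cldn5 did not.

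Flt1 and Pdgfrb were called higher by edgeR under the block, which is 2 of 9 tested markers against 2.23% of all genes tested. No marker was called lower, against 1.42% of all genes tested. Flt1, also called VEGFR1, is a VEGF receptor that binds its ligand tightly and signals weakly, and a soluble form traps VEGF. Its levels were 6.11, 7.0 and 6.97 CPM in DMSO replicates 1, 2 and 3 (53, 56 and 59 counts) and 12.4, 19.3 and 19.6 CPM with GSK-126 (149, 160 and 172 counts). The DMSO libraries lay close together, and every GSK-126 library lay above all of them. The log2 fold change was 1.35 (SE 0.252), with an edgeR adjusted p of 0.465. With the replicate block it was 1.33 (SE 0.212), a 2.51-fold difference, at an edgeR adjusted p of 0.00838. DESeq2 called Flt1 without the block at an adjusted p of 0.00524. Without the libraries of replicate 2 the blocked edgeR value was 1.27 and its adjusted p 0.0508, so that call was lost.

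Kdr, or VEGFR2, is the receptor that carries most of the VEGF signal in endothelial cells. It stood at 14.3, 11.5 and 9.22 CPM with DMSO and at 14.2, 9.76 and 10.8 CPM with GSK-126. The groups overlapped, replicate 1 was the highest in both, and a single pair of 3 was higher with GSK-126. Its fitted log2 fold change of -0.01 (SE 0.256) had an edgeR adjusted p of 0.998, or 0.992 under the block. Relative to Kdr, Flt1 per kb stood at 0.286, 0.407 and 0.506 in DMSO replicates 1, 2 and 3 and at 0.586, 1.32 and 1.21 with GSK-126. The log2 ratio of the CPM of both receptors differed by 1.33 between groups with no overlap. A two-sided exact permutation of the libraries, without regard to pairs, gave p = 0.10, the smallest that 3 libraries against 3 allow. The ratio was formed with the values of both genes known, so no conclusion is drawn from that p.

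The promoters of these receptors are shown as background, since EZH2 is known to act at promoters rich in CG dinucleotides. This pair of related receptors was picked after its values were seen to differ. H3K27me3 at these genes was not examined here, and a link between CG content and the values was not tested. RefSeq sequences of GRCm38.p6, from 250 bases before to 50 bases after the start, were at hand for 6 of the 10 markers (Kdr, Flt1, Tek, Cldn5, Rgs5 and Vtn). All are written 5′ to 3′ on the strand of the gene with each CG in capitals. Flt1 is given from chr5:147725962-147726261 (minus strand), Kdr from chr5:75978406-75978705 (minus strand), Tek from chr4:94739039-94739338 (plus strand), and Rgs5, as a mural marker, from chr1:169655251-169655550 (plus strand).
Flt1: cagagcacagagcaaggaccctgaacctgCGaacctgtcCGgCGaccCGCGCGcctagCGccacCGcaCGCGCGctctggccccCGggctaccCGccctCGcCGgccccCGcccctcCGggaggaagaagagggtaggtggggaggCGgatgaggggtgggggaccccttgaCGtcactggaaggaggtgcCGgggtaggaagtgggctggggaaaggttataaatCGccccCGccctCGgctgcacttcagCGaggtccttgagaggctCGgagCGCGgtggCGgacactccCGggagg
Kdr: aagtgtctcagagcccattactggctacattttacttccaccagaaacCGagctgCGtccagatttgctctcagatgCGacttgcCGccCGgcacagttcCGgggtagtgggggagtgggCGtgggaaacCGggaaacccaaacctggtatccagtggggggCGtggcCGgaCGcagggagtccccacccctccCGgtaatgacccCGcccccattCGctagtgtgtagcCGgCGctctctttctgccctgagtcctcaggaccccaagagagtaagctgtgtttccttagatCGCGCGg
Tek: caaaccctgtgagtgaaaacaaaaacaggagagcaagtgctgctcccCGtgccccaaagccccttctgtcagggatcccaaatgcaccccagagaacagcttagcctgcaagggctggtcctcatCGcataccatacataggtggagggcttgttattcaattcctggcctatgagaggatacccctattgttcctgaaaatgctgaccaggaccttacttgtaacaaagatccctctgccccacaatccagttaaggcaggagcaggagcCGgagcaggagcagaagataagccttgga
Rgs5: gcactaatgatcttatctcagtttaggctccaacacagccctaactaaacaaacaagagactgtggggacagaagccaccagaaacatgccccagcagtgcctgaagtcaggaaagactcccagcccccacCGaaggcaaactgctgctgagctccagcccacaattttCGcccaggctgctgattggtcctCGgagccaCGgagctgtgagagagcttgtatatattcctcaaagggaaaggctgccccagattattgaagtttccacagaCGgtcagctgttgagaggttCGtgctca

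Flt1 held 29 CG dinucleotides in these 300 bases at a GC content of 70.7%, and 87.1% of the 32851 promoters in the table held fewer. Kdr held 19 (GC 60.7%), and 71.9% of promoters held fewer. Cldn5 held 12, Vtn 9, Rgs5 6 and Tek 3, against a median of 7 and quartiles of 3 and 20 over all promoters. The run CCGGAA, a core bound by ETS factors, was searched on both strands and found once in Kdr, and 14.9% of all promoters hold it. The run TATAAA was searched on the gene's strand and found once each in Flt1 and Vtn, against 8.32% of all promoters. AGATAA, a run bound by GATA factors, was searched on both strands and found once each in Tek and Rgs5, against 11.2%. A match describes these letters in this window, and the start in use in these cultures was not measured.

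Tek encodes the angiopoietin receptor TIE2. It was measured at 5.42, 2.38 and 2.36 CPM with DMSO and at 5.83, 2.77 and 6.72 CPM with GSK-126, on 19 to 70 counts. Each pair was higher with GSK-126, but the log2 ratio within pair 3 was 1.43 while pairs 1 and 2 had 0.10 and 0.20. The groups overlapped, and the log2 fold change of 0.59 (SE 0.475) had an edgeR adjusted p of 0.856 (0.466 with the block).

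Among the junction and adhesion genes, Cdh5 was the marker that stood lower with GSK-126 in each of 3 pairs. Its levels were 59.9, 36.5 and 52.4 CPM in DMSO replicates 1, 2 and 3 and 46.2, 29.3 and 45.0 CPM with GSK-126. Replicate 2 was the lowest in both groups, and the groups overlapped. The log2 ratios within pairs 1, 2 and 3 were -0.37, -0.32 and -0.22. The log2 fold change of -0.30 (SE 0.236) did not pass the test at an edgeR adjusted p of 0.853, nor with the block (SE 0.124, adjusted p = 0.240). Of all tested genes 19.3% were lower in 3 of 3 pairs, so the direction alone is common.

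Pecam1, an adhesion molecule of endothelial cells that also occurs on platelets and leukocytes, was read from 15, 9 and 18 counts in DMSO replicates 1, 2 and 3, and from 21, 25 and 16 counts after GSK-126. That is 1.73, 1.13 and 2.13 CPM against 1.75, 3.01 and 1.82 CPM. The groups overlapped, and replicate 2 held both the lowest and the highest value. Its fitted log2 fold change of 0.39 (SE 0.457) had an edgeR adjusted p of 0.902, or 0.774 under the block.

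Esam, an adhesion molecule of endothelial tight junctions, was counted 5, 15 and 6 times in the DMSO libraries and 16, 19 and 25 times in the GSK-126 libraries (0.577, 1.88 and 0.709 CPM against 1.33, 2.29 and 2.85 CPM). DMSO replicate 2 lay above GSK-126 replicate 1, and all 3 pairs were higher with GSK-126. Its log2 fold change of 1.02 (SE 0.588) had an edgeR adjusted p of 0.836 (0.342 with the block).

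Cldn5, the main claudin of brain endothelial tight junctions, had 4, 0 and 2 counts in DMSO replicates 1, 2 and 3 and 22, 6 and 6 with GSK-126. These counts correspond to 0.461, 0 and 0.236 CPM against 1.83, 0.723 and 0.683 CPM, where 3 counts are worth 0.250 to 0.375 CPM depending on the library. The groups did not overlap, and the DMSO libraries lay at or near that floor. The fit without a filter on low counts gave a log2 fold change of 2.16 (SE 1.05), at an edgeR adjusted p of 0.846 (0.431 with the block). That fit called 85 of 28842 genes (0.295%) without the block, and among the endothelial markers it called Flt1 at an edgeR adjusted p of 0.0247.

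Pdgfrb, the PDGF-B receptor through which pericytes are recruited, was the mural marker called by edgeR with the filter and the block. Rgs5, described below, had a similar blocked log2 fold change of 0.62 and lay just outside that threshold. Pdgfrb stood at 95.6, 101 and 122 CPM in DMSO replicates 1, 2 and 3 (829, 809 and 1033 counts). With GSK-126 it stood at 166, 145 and 182 CPM (1995, 1204 and 1594 counts). All GSK-126 libraries lay above all DMSO libraries. The log2 fold change was 0.63 (SE 0.148), at an edgeR adjusted p of 0.622 without the block. With the block it was 0.63 (SE 0.109), a 1.55-fold difference, at an edgeR adjusted p of 0.0111. Without each pair in turn that adjusted p of edgeR ran from 0.00938 to 0.0431. DESeq2 gave an adjusted p of 0.0805 without the block.

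Rgs5, a regulator of G protein signalling and a classic pericyte marker, spread more between replicates than between groups. It stood at 28.4, 14 and 52.8 CPM with DMSO and at 37.1, 29.3 and 74.4 CPM with GSK-126. Replicate 2 was the lowest and replicate 3 the highest in both groups, and each pair was higher with GSK-126. Its log2 fold change of 0.56 (SE 0.482) had an edgeR adjusted p of 0.864, and it moved from 0.064 without GSK-126 replicate 3 to 1.16 without DMSO replicate 3. With the block it was 0.62 (SE 0.156) at an edgeR adjusted p of 0.0532, while DESeq2 with the block gave 0.0317 and edgeR with the block and no filter 0.00277.

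Vtn encodes vitronectin, a matrix protein that pericytes make in the brain. Its levels were 71.2, 31.1 and 72.4 CPM with DMSO and 96.4, 43.5 and 71.2 CPM with GSK-126. Replicate 2 was again the lowest in both groups, and pair 3 was flat with a log2 ratio of -0.03 (the values for pairs 1 and 2 were 0.44 and 0.48). A log2 fold change of 0.27 (SE 0.361) had an edgeR adjusted p of 0.917 (0.293 with the block), and it turned to -0.01 without DMSO replicate 2 and to -0.02 without GSK-126 replicate 1.

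**Figure D2:**
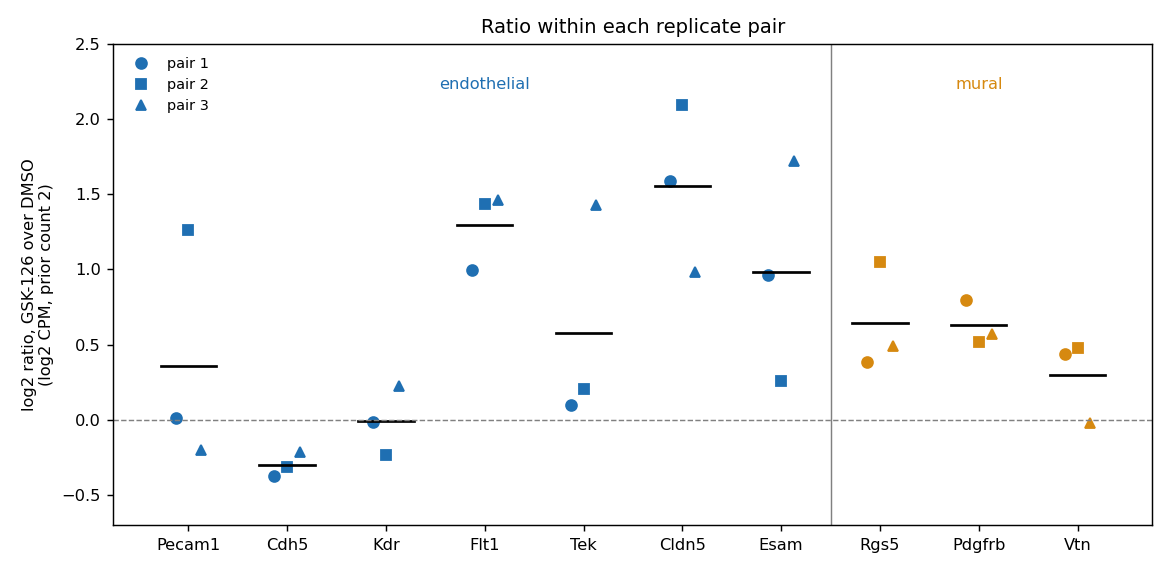
Log2 ratio of GSK-126 over DMSO within each of the 3 pairs of libraries with the same replicate number (log2 CPM, prior count 2), with a black bar at the mean of the 3. The mural markers lie between -0.03 and 1.05, while the endothelial markers spread from -0.37 for Cdh5 to 2.09 for Cldn5.

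Endothelial and mural markers did not separate in their mean response. The mean log2 ratio over the 7 endothelial markers was 0.47, 0.67 and 0.77 in pairs 1, 2 and 3, and that over the 3 mural markers was 0.54, 0.68 and 0.35. The endothelial minus mural difference was -0.07, -0.01 and 0.43, with a mean of 0.11 ± 0.27 (SD, n = 3 pairs). Without the low-count Cldn5 it was -0.26, -0.25 and 0.39, with a mean of -0.04 ± 0.37. The spread over pairs was larger than either mean. By medians over all markers of a kind, the endothelial values were 0.10, 0.26 and 0.98 and the mural values 0.44, 0.52 and 0.49, and the median fitted value over all genes tested was -0.002.

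Within the endothelial markers the direction differed by gene. The summed level of all 7 was 74.3 ± 14.1 CPM with DMSO and 79.4 ± 10.8 CPM with GSK-126 (mean ± SD, n = 3), with overlapping libraries. Leaving Cdh5 out, it was 24.7 ± 3.57 against 39.2 ± 2.85 CPM, and leaving Flt1 out it was 67.6 ± 14.5 against 62.3 ± 12.6 CPM. The summed level of the 3 mural markers was 196 ± 50.5 against 282 ± 56.8 CPM, higher with GSK-126 in each pair and overlapping between groups. Of the 9 tested markers, 2 (Flt1 and Pdgfrb) had GSK-126 libraries all above the DMSO libraries, against 5.43% of all tested genes, and none had them all below, against 5.44%. Tek, Esam, Flt1, Rgs5 and Pdgfrb were higher in 3 of 3 pairs, against 19.7% of all tested genes.

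**Figure D3:**
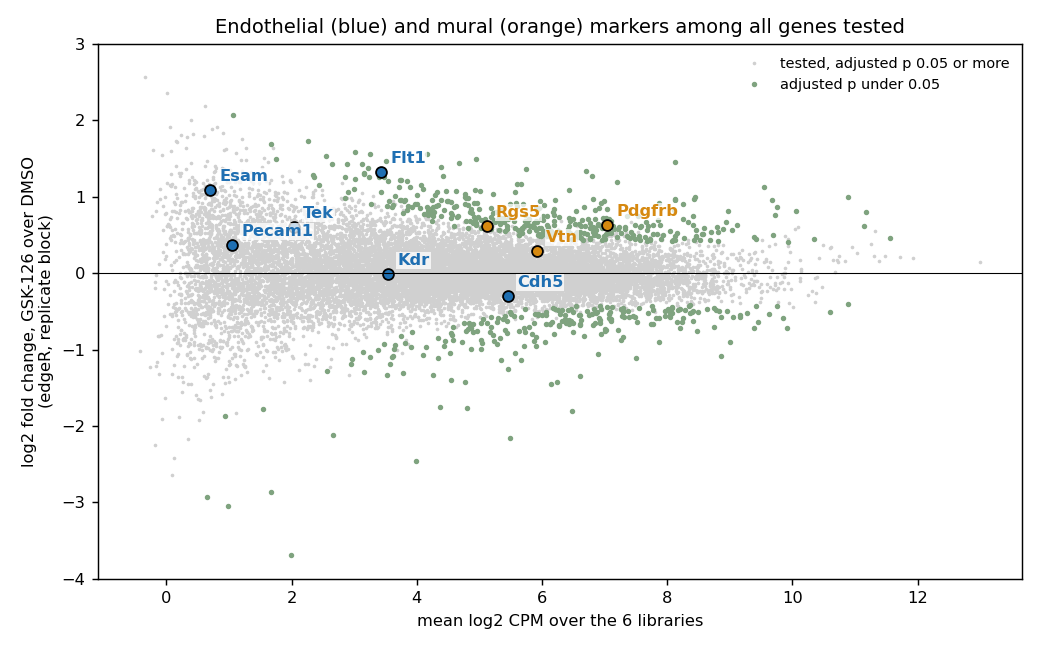
Log2 fold change from edgeR with the replicate block against mean log2 CPM over the 6 libraries, a point per tested gene, with genes at an adjusted p under 0.05 in green. Flt1 at 1.33 and Pdgfrb at 0.63 lie among the genes past the threshold, Rgs5 at 0.62 lies just outside it, and Kdr lies near 0.

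Of the 22 other endothelial genes 10 were tested, and under the block 1 was higher and 0 lower, against 2.23% and 1.42% of all genes tested. The gene that rose was Eng, the TGF-beta co-receptor endoglin, at 45.0 ± 19.9 CPM with DMSO and 64.5 ± 27.8 with GSK-126 (log2 fold change 0.52, SE 0.120, edgeR adjusted p = 0.0368 with the block and 0.841 without). Leaving out any 1 pair ended that call. S1pr1, the sphingosine-1-phosphate receptor, stood at 38.9 ± 12.3 and 44.0 ± 10.8 CPM, Ecscr, a surface protein of endothelial cells, at 8.39 ± 3.11 and 10.2 ± 3.77, and Vwf, von Willebrand factor, at 5.85 ± 1.71 and 7.50 ± 1.30, and none of these passed. Summed over the list, the level ran from 104.6 to 157.9 CPM with DMSO and from 127 to 188 CPM with GSK-126.

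Of 12 genes of the blood-brain barrier, all tested, 1 rose under the block (2.23% of all genes tested did) and 0 fell. It was Slc2a1, the glucose transporter GLUT1, at 27.2 ± 0.706 against 42.9 ± 0.775 CPM (log2 fold change 0.66, SE 0.133, edgeR adjusted p = 0.0220 with the block and 0.465 without), and its groups did not overlap. That call was lost without the libraries of replicate 2 and without those of replicate 3. GLUT1 is also made by other brain cells. The tight junction scaffold Tjp1 (155 ± 48.2 and 178 ± 47.7 CPM), the junction protein gene Cgnl1 (65.2 ± 12.1 and 80.2 ± 17.4 CPM) and the efflux pump gene Abcg2 (26.0 ± 5.08 and 28 ± 1.82 CPM) did not pass.

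Of 16 other mural genes 13 were tested, 4 were higher under the block, against 2.23% of all genes tested, and 0 lower. Their median log2 fold change without the block was 0.50, against -0.002 over all genes tested. A raised median was not particular to this list. It was 0.44 for vascular ligands and co-receptors, 0.39 for microglia genes and 0.335 for fibroblast and leptomeningeal genes. For other endothelial genes it was 0.14, for barrier genes 0.047, for astrocyte genes 0.056, for oligodendrocyte lineage genes 0.17 and for granule neuron genes -0.27. Acta2, smooth muscle actin, rose from 400 ± 117 to 618 ± 75.2 CPM (log2 fold change 0.67 with the block, SE 0.122, edgeR adjusted p = 0.0141). Tagln, an actin-binding protein of smooth muscle, rose from 273 ± 91.3 to 441 ± 51.0 CPM (0.74, SE 0.165, edgeR adjusted p = 0.0331), although 67.9% of its exons lie under genes of the opposite strand (Pcsk7 and Gm48529), whose reads cannot be told apart without strand. Cspg4, the NG2 proteoglycan, went from 20.8 ± 3.72 to 38.6 ± 7.19 CPM (0.89, SE 0.143, edgeR adjusted p = 0.00846), and Anpep, aminopeptidase N, from 59.9 ± 25.7 to 100.2 ± 39.9 CPM (0.76, SE 0.110, edgeR adjusted p = 0.00528). Notch3, a receptor of arterial smooth muscle, stood at 44.5 ± 13 and 55.8 ± 24.7 CPM and did not pass. Without the block none of these was called, and without the pair of replicate 2 the blocked fit called 2 of the list. Several defining pericyte genes were near 0, with Higd1b at 0 or 1 counts and Kcnj8 at 0 to 15. The summed level of the list did not overlap between groups, at 617 to 1103 CPM with DMSO and 1180 to 1535 CPM with GSK-126. Acta2 and Tagln made up most of that sum. Without this pair of genes the sums of the other 14 overlapped, at 146 to 249 CPM with DMSO and 193 to 341 CPM with GSK-126, and were higher with GSK-126 in each of 3 pairs. NG2 and smooth muscle actin are also made by oligodendrocyte precursors and by myofibroblasts, respectively.

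Of 13 vascular ligands and co-receptors, all tested, 4 rose under the block, where 2.23% of all genes tested did, and 0 fell. They were the VEGF and semaphorin co-receptors Nrp2 (101 ± 16.3 to 142 ± 21.3 CPM, log2 fold change 0.49, edgeR adjusted p = 0.0298) and Nrp1 (87.3 ± 26.7 to 118 ± 30.0 CPM, 0.46, edgeR adjusted p = 0.0449), the cytokine gene Tgfb1 (34.9 ± 9.0 to 56.7 ± 11.4 CPM, 0.71, edgeR adjusted p = 0.0143) and the TEK ligand gene Angpt2 (29.8 ± 6.20 to 49.3 ± 15.9 CPM, 0.70, edgeR adjusted p = 0.0221). Without the libraries of replicate 2, or those of replicate 3, the blocked fit called 1 of the list. Vegfa, the main ligand of FLT1 and KDR, stood at 63.4 ± 2.83 and 72.7 ± 8.38 CPM and did not pass.

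Some lists of other cell types held genes called under the block, and others held none. Summed over 12 fibroblast and leptomeningeal genes, the level ran from 7269 to 9470 CPM with DMSO and from 9480 to 10600 CPM with GSK-126, with no overlap, so that it was far above the summed level of the vessel markers. Under the block 2 of these genes rose (Col1a1 and Igf2, the latter with 62.8% of its exons shared with Gm49394) and 1 fell (Slc6a13). Of all genes tested 2.23% rose and 1.42% fell. Fibroblasts are cells in which Pdgfrb is known to be transcribed, and their part in the Pdgfrb result was not tested. For 10 astrocyte genes the summed level, with 0 genes called, ran from 2418 to 7308 CPM with DMSO and from 2521 to 7571 CPM with GSK-126. Replicate 2 was the lowest on this list in both groups, as it was for Cdh5, Rgs5 and Vtn.

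For 10 microglia genes the sum, at 443 to 749 CPM with DMSO and 575 to 1144 CPM with GSK-126, overlapped between groups. Of the 9 tested, 3 rose under the block, against 2.23% of all genes tested, and 0 fell. The complement genes C1qb and C1qc were among those that rose, while Trem2 had 0 counts in all libraries. Of 10 oligodendrocyte lineage genes 0 were called, with sums of 473 to 695 and 509 to 824 CPM. Of 10 granule neuron genes 3 fell under the block (Cbln1, Neurod1 and Rbfox3), against 1.42% of all genes tested, and 0 rose. The sum over these 10 ran from 4939 to 6749 CPM with DMSO and from 3745 to 5585 CPM with GSK-126. Of 5 red blood cell genes 4 had 0 counts in all libraries and none was tested, with sums of 0.118 to 0.500 and 0.333 to 0.911 CPM. The part of these lists in the results for the vessel markers was not tested.

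**Figure D4:**
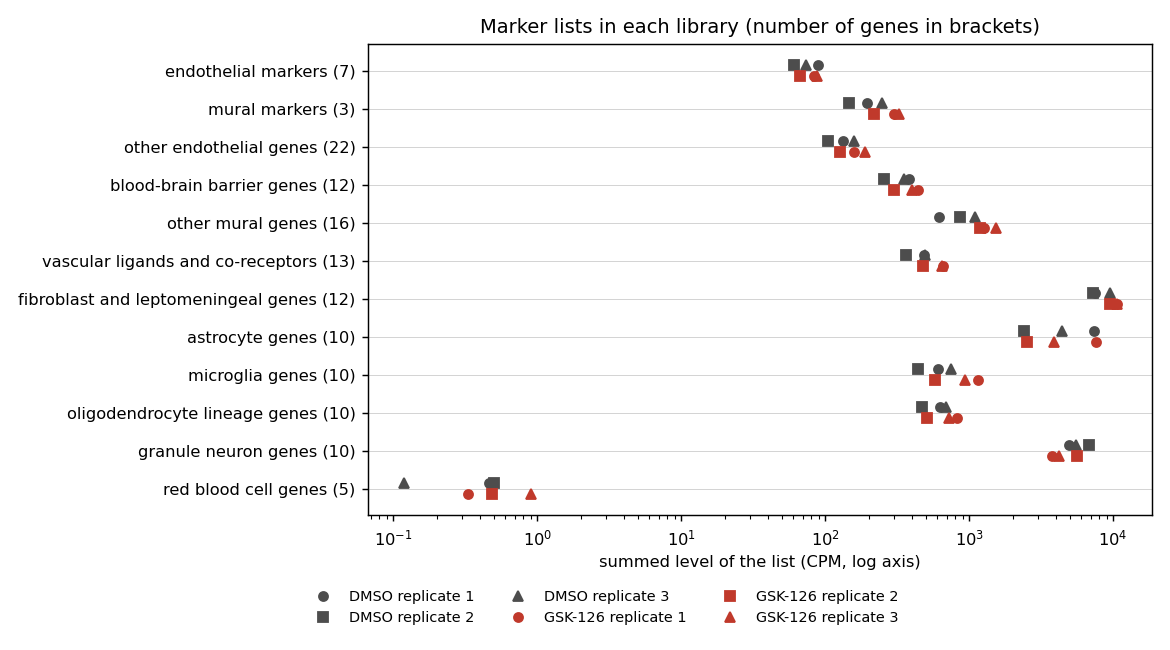
Summed CPM of each gene list in each library on a log axis, with DMSO in grey, GSK-126 in red, a symbol per replicate number and the number of genes in brackets. The other mural genes (whose sum is mostly Acta2 and Tagln) and the fibroblast genes have GSK-126 libraries that all lie above the DMSO libraries, and the endothelial and mural markers sum to less than the lists of fibroblast, astrocyte, microglia, oligodendrocyte lineage and granule neuron genes.

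Genes outside the lists were ranked by the likeness of their levels to the vessel markers. Likeness was the Pearson correlation of log2 CPM with the mean standardised profile of the tested markers of a kind, over 6 libraries that share treatment and replicate effects. The highest of many correlations over 6 libraries can lie near 1 by chance, so no cell type or shared control is read from these names. For the 6 tested endothelial markers the closest genes were Snx19 (0.998), Galnt6os (0.995), Htr2b (0.993), Vsig10l (0.985) and Nsun4 (0.981), and 25 genes reached 0.95. The markers themselves correlated less with their own profile, from 0.899 for Tek and 0.683 for Flt1 through Kdr (0.388), Esam (0.328) and Pecam1 (0.293) to 0.106 for Cdh5. Galnt6os is named as antisense to Galnt6 and is uncertain without strand. For the 3 mural markers the closest were Galnt6 (0.997), Gusb (0.995), Cercam (0.994), Cd53 (0.994) and Ggta1 (0.993), and 259 genes reached 0.95. The mural markers correlated with their own profile at 0.929 for Rgs5, 0.835 for Vtn and 0.821 for Pdgfrb.

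In the GENCODE annotation of GRCm38 the endothelial markers lie at chr11:106654217-106750628 (Pecam1), chr8:104101625-104144511 (Cdh5), chr5:75932827-75978458 (Kdr), chr5:147561604-147726011 (Flt1), chr4:94739289-94874976 (Tek), chr16:18776847-18778262 (Cldn5) and chr9:37528078-37538319 (Esam). The mural markers lie at chr1:169655501-169695813 (Rgs5), chr18:61045150-61085061 (Pdgfrb) and chr11:78499091-78502324 (Vtn). The exons of each of the 10 genes overlapped those of other genes, on either strand, over 0% of their length, so reads of a neighbour do not enter their counts by overlap.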

How the data were processed

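RNA of 3 DMSO and 3 GSK-126 CGN libraries was sequenced by the authors as poly(A)-selected paired-end reads. The submitters' processing notes name Trimmomatic 0.38 and STAR 2.7.2b with mm10, and the study's methods name HTSeq over exons. The deposited values are raw read counts per gene, 1 file per library, with no normalization. The 5 summary rows, which name no gene, entered neither totals nor tests, with 39.1% to 41.6% of reads assigned to genes and 44.8% to 46.7% over no exon. Whether counting used strand is not given in the sources used here.

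Totals over genes ran from 8058760 to 12047837 counts, so that 3 counts were worth 0.250 to 0.375 CPM. These floors cover counting error only. No pair of libraries agreed within sampling noise (lowest chi-square per degree of freedom 9.98).

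Genes were filtered with filterByExpr by group (16343 of 55341 tested), scaled by TMM (0.994 to 1.01) and tested with edgeR 4.0.16 (glmQLFit, glmQLFTest, treatment alone, R 4.3.3) with Benjamini-Hochberg adjustment over all genes tested and a threshold of 0.05. SE is the log2 fold change divided by the square root of F. Ratios within pairs used log2 CPM with a prior count of 2. Level per kb used the union exon length in GENCODE M21. The edgeR fits were also run on simulated counts with known changes. Their spread was set in advance and not estimated from these libraries, so no support for the results is drawn from that run. DESeq2 1.42.0, a replicate block, other scalings, no filter and leaving out each replicate were alternatives, and no filter together with the block was added after seeing the data.

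Same-numbered libraries deviated together from their group means, with correlations of 0.351, 0.503 and 0.517, against -0.411 to -0.010 for different numbers. Deviations from a group mean cancel over that group. The values for different numbers therefore depend on those for the same number and are no separate baseline. In the study's methods a replicate is a culture from pooled litters. The numbers were taken to pair the libraries.

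The markers, the lists and the ratio of Flt1 to Kdr were chosen with earlier results of these data known. All 10 markers are named. Of each other list, the rule named the 4 genes of highest mean CPM and those past the threshold in either fit, and values are given in the text for vascular lists. Likeness was ranked among tested genes outside the lists, with the 5 highest named. Genes with other low counts (Erg, Sox17, Sox18, Icam2, Higd1b, Kcnj8, Trem2) were named after their values were seen. A gene of the microglia list is not reported here.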

Additional observations from a re-analysis of the deposited data

How the results depend on the processing

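With the filter and without the block, edgeR called no marker and no listed gene under either other scaling or without any 1 library. With the replicate block 597 genes were called, with DESeq2 59, with DESeq2 and the block 674, without the low-count filter 85, and with no filter and the block (chosen after seeing the data) 1136. Leaving out single libraries gave 0, and the block without 1 pair 178, 359 and 704 (without pairs 2, 3 and 1). Endothelial markers called were 1 under each of these settings and 0 to 1 when replicates were left out. Mural markers called were 1 with the block, 2 with DESeq2 and the block, 2 with no filter and the block, and 0 to 2 when replicates were left out. In the same 3 blocked settings the calls were 1, 1 and 1 for other endothelial genes (0 when replicates were left out), 1, 1 and 1 for barrier genes (0 to 1 when replicates were left out, and 1 with DESeq2 alone), 4, 3 and 4 for other mural genes (0 to 4) and 4, 4 and 6 for ligands and co-receptors (0 to 4). The median log2 fold change of the mural markers was 0.56, against 0.62 with the block, 0.63 with DESeq2 and the block, 0.63 with no filter and the block, 0.22 to 0.75 without single libraries, and 0.46 to 0.66 with the block without 1 pair. The endothelial minus mural difference, there from fitted values, ran from -0.32 to 0.27 without single libraries and was -0.23 with the block without pair 3. These fits kept the filter and so left out Cldn5, which makes them comparable with the mean without Cldn5. Signs turned for Kdr (0.001 without the filter, 0.0008 with the block as well, -0.18 to 0.17 without single libraries, 0.12 with the block without pair 2), Pecam1 (-0.086 to 0.69) and Vtn (-0.024 to 0.53). In edgeR with the filter the replicate block changed the calls of Flt1 and Pdgfrb and of no other marker, while in DESeq2 and in edgeR without the filter it changed those of Pdgfrb and Rgs5 (for Rgs5, adjusted p 0.0317 and 0.00277 with the block, 0.991 and 0.847 without). Without single libraries Rgs5 ran from 0.064 to 1.16, Tek from 0.35 to 1.12, Esam from 0.73 to 1.73 and Cdh5 from -0.47 to -0.12. The cause of these shifts was not tested. Cldn5, Esam and Pecam1 rest on at most 25 counts in a library.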
